A study of Mus musculus with 8 samples.

Results

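Mouse cervical organoids that had differentiated for 2 weeks in Matrigel were compared between Wnt-deficient and Wnt-proficient medium. All arrays whose labels say Differentiated Organoids were taken, which are 4 of the 8 arrays of the series. The Wnt-proficient organoids were of passage 1 (replicate 1) and passage 4 (replicate 2), and both Wnt-deficient organoids were of passage 2. Of the 55681 probes other than controls, 28454 were tested, those that the scanner software (Feature Extraction) marked as well above background on the 2 arrays of either group, and 27227 were not. In the study's methods, the cells came from the cervix of adult female wild-type BALB/c mice, and the Wnt-proficient medium held WNT3A- and R-spondin-1-conditioned medium, which the Wnt-deficient medium lacked. As these methods state, both media contained EGF, noggin, FGF10, N-acetyl-cysteine, nicotinamide, a ROCK inhibitor and an inhibitor of the TGF-beta receptor kinase. The labels give the tissue as cervix, and the methods name the region as ectocervix.

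Wnt ligands bind Frizzled receptors and Lrp co-receptors and stabilize beta-catenin, which joins TCF/LEF factors at target genes, while R-spondins keep the receptors at the cell surface through Lgr proteins. Secreted inhibitors such as Wif1, Sfrp and Dkk proteins and the membrane ligases Rnf43 and Znrf3 restrain the pathway. A stratified squamous epithelium is renewed from a Krt5-positive basal layer, and its cells switch keratins and cross-link cornified envelope proteins on their way to the surface, whereas a columnar epithelium carries keratins such as Krt8, Krt18 and Krt19.

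All 4 arrays carried the genes of squamous epithelium. All 10 of the 10 squamous markers were well above background on each of the 4 arrays, with the highest mean log2 intensity over the arrays for the Krt5 probe, and their summed normalized intensity was 569200 and 388500 in the Wnt-proficient and 915500 and 987100 in the Wnt-deficient organoids (here and below, the Wnt-proficient array of passage 1 comes first, then that of passage 4, then Wnt-deficient replicates 1 and 2). Of 8 columnar markers, 4 were well above background on all 4 arrays, with the highest mean log2 intensity for the Krt7 probe, and Muc1 and Foxa2 were on no array. The columnar sum was 144200 and 197200 in the Wnt-proficient and 9713 and 2780 in the Wnt-deficient organoids. Both Wnt-deficient arrays were below both Wnt-proficient ones in the columnar sum and above them in the squamous sum, which does not hold for each gene: Pax8 had its higher values on the Wnt-deficient arrays and Ivl on the Wnt-proficient ones. For the squamous markers Krt5, Krt1 and Trp63 the groups overlapped. In RNA from whole organoids, fewer cells of a type and less RNA per cell cannot be told apart.

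The Wnt-deficient arrays were dimmer. On them 47.9% and 43.2% of the probes were well above background, against 51.9% and 52.9% on the Wnt-proficient arrays, and the 75th percentile of the processed intensity was 288 and 207 against 512 and 494. Medium, slide, scan session and mice coincide in this design, so that their effects cannot be told apart, and 2 arrays per group limit the precision of each estimate. Across the tested probes, which are not independent replicates, replicate arrays had correlated log2 intensities, with r = 0.985 (Wnt-proficient) and 0.988 (Wnt-deficient), and arrays from different groups had r between 0.926 and 0.938.

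In Wnt-deficient medium many late cornified envelope genes, most of the tested kallikreins, several suprabasal keratins and several defensins were higher, many by more than 5 on the log2 scale, and columnar keratins, some EGFR and BMP response genes, hypoxia genes and posterior Hoxa and Hoxd genes were lower. By limma, 2165 of the 28454 tested probes (7.61%) were called, that is, passed an adjusted p of 0.05 with a difference in log2 intensity (Wnt-deficient minus Wnt-proficient, the log2 fold change below) beyond 1.5 in either direction. Of these, the Wnt-deficient organoids lay above the Wnt-proficient ones in 1012 (3.56% of the tested probes) and below them in 1153 (4.05%). The arrays of the groups did not overlap in any called probe. As a call already asks for a large difference, this adds no separate evidence, here or for the called genes below. The share of all tested probes without overlap is not given. With 1 probe for each of 13299 named genes, 577 (4.34%) were higher and 793 (5.96%) lower. The median log2 fold change was -0.01 over all tested probes and -0.04 over the named genes, and the values of each gene list below stand beside these. Over probes, the difference between the arrays of a group had an SD of 0.49 in the Wnt-proficient and 0.44 in the Wnt-deficient organoids, against an SD of 0.98 for the log2 fold change between the groups.

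**Figure D1:**
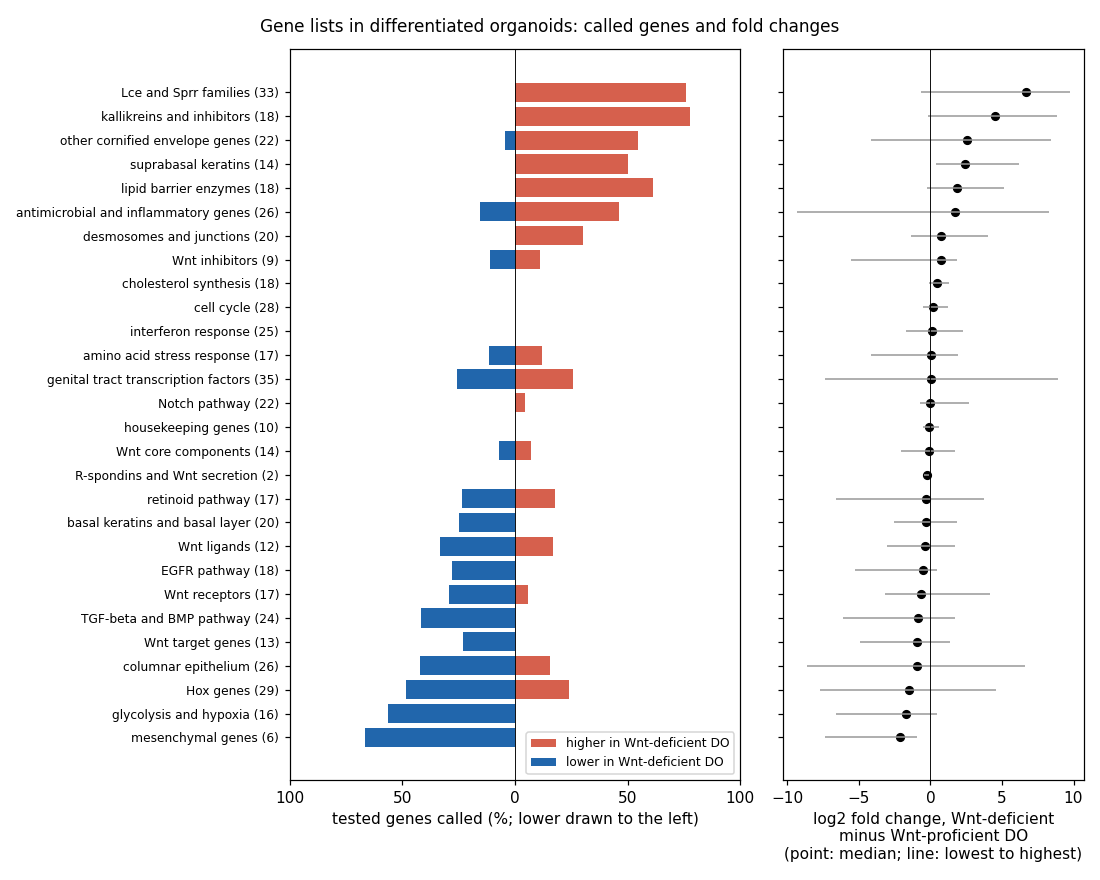
Left, percent of the tested genes of each list (number tested in brackets) that were called higher (red, to the right) or lower (blue, to the left) in Wnt-deficient differentiated organoids (DO); right, median log2 fold change (point) with the lowest and highest gene (line). The Lce and Sprr list has a median of 6.66 and the glycolysis and hypoxia list one of -1.71, and the medians of the Wnt ligands, Wnt core, Notch, interferon, Hox, genital tract factor and housekeeping lists change sign under other processing or another filter.

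Among called probes well above background on all 4 arrays, the 12 named genes with the largest rises were Lce3b, Lce3c, Lce3d, Klk8, Krtdap, Defb14, Igfbp2, Asprv1, Crct1, Sprr3, Cnfn and S100g. Igfbp2, which binds insulin-like growth factors, had log2 intensities of 9.39, 6.50, 15.51 and 16.35. Both Wnt-deficient arrays lay above both Wnt-proficient ones, and the log2 fold change was 7.98 (standard error, SE, 1.03, limma adjusted p 0.00197). S100g, a calcium-binding protein, stood at 8.21, 6.96, 14.72 and 15.22, again high on both Wnt-deficient arrays, with a log2 fold change of 7.39. The 12 largest falls were those of Msln, Ndufa4l2, Gsdmc3 (whose probe is also listed for Gsdmc2), Gsdmc, Stra6, Egln3, Smoc2, Krt19, Foxa1, Fxyd4, Bnip3 and Rgs3. Ndufa4l2, a mitochondrial protein that responds to low oxygen, was at 14.55, 14.16, 6.62 and 7.51, and Gsdmc, a gasdermin, was at 16.26, 15.54, 8.69 and 9.27. For both genes the Wnt-proficient arrays were the high ones, with log2 fold changes of -7.29 and -6.92. Smoc2, a secreted matrix protein, had a log2 fold change of -6.49, Fxyd4, a regulator of ion transport, one of -6.19, and Rgs3, a regulator of G-protein signalling, one of -5.76. Of the 4 tested probes of Rgs3 only 1 was called, and of the 2 of Crct1 likewise only 1.

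Some genes had a signal in only 1 of the media. In all, 136 called probes were higher in Wnt-deficient medium and well above background on neither Wnt-proficient array, and 199 were lower and well above background on neither Wnt-deficient array. For these a fold is a lower limit, computed against the mean over the dim arrays of, on each array, the lowest intensity that was still well above background or the probe's own value, whichever was higher. Genes with a signal on only 1 array of a medium are given with their log2 fold change, which is then no exact fold. The largest such limits upward were those of the transcription factor Irx1 (at least 424-fold higher), Lce3e (392), Lce1i (366), Lce1e (268), the defensin Defb4 (262), Lce1d (259), the cytochrome P450 gene Cyp2f2 (230) and the serine protease inhibitor Serpinb3a (207). Downward they were those of the cytokine Tslp (at least 462-fold lower), Cd34 (132), Hoxd13 (97.4), Tm4sf1 (61.3), Hoxa7 (60.5), Calca (59.1), Hoxa11 (53.4) and the potassium channel Kcnn4 (47.2). Of the 2 tested probes of Cd34, only 1 was called.

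Several of the genes that encode Wnt ligands fell in Wnt-deficient medium, and others rose. Of 19 ligand genes, 12 were tested. Of these 4 were called lower, 2 higher and 6 were not called, with a median log2 fold change of -0.40 (-0.33 with genes lacking a signal in 1 medium at their bound), which became 0.05 when the arrays were scaled to their 75th percentile in place of quantile normalization and was -1.20 over the 7 genes well above background on all 4 arrays. Wnt5a, a ligand known mainly for signalling without beta-catenin, had log2 intensities of 12.91, 12.79, 9.74 and 9.94. The Wnt-deficient arrays were both lower, with a log2 fold change of -3.01 (SE 0.31, limma adjusted p 0.000838). Wnt6 stood at 10.94, 9.83, 8.57 and 8.31 and Wnt9a at 8.92, 9.68, 7.25 and 7.66. For these canonical ligands too the groups did not overlap, with log2 fold changes of -1.94 and -1.85. Wnt11, at 7.64, 7.82, 6.15 and 6.14, had no signal in Wnt-deficient medium and was at least 2.57-fold lower. Wnt4, a ligand needed for the development of the female reproductive tract, went the other way, from 14.11 and 13.63 to 15.44 and 15.60 (log2 fold change 1.65, SE 0.31, limma adjusted p 0.00866), and so did Wnt16, from 7.40 and 6.07 to 7.91 and 9.03 (log2 fold change 1.73). Wnt10a, at 14.56, 14.87, 13.39 and 13.63, had an adjusted p of 0.00227 by limma but a log2 fold change of -1.20, short of the threshold. The other tested ligands had log2 fold changes of -0.67 (Wnt7a, without signal in Wnt-deficient medium), -0.14 (Wnt5b), 0.15 (Wnt7b), 0.62 (Wnt3a, without signal in Wnt-proficient medium) and 0.70 (Wnt1). Wnt2, Wnt2b, Wnt3, Wnt8a, Wnt8b, Wnt9b and Wnt10b were not tested, and neither were any of the R-spondin genes Rspo1, Rspo2, Rspo3 and Rspo4. Porcn, which acylates Wnt proteins, and Wls, which carries them to the surface, had log2 fold changes of -0.44 and -0.10, and limma called 0 of these 2 genes, with 0 at an unadjusted p under 0.05. Wnt5a kept its call under every setting tried and the other 5 ligands did not: without the passage 4 array Wnt9a had a log2 fold change of -1.47, Wnt11 one of -1.49 and Wnt4 one of 1.41, without the passage 1 array Wnt6 had one of -1.39, and the adjusted p of Wnt16 went up to 0.213.

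The Frizzled receptors changed in opposite directions. Of 17 tested receptor and co-receptor genes, 5 were lower, 1 was higher and 11 were not called (median log2 fold change -0.69, or -0.11 over the 15 genes well above background on all 4 arrays), and Ror1 was not tested. Fzd7 had log2 intensities of 10.58, 10.66, 7.32 and 7.51, and Fzd4 of 9.95, 10.61, 7.0 and 7.57. Both receptors were low on both Wnt-deficient arrays, with log2 fold changes of -3.20 (SE 0.23, limma adjusted p 0.000225) and -2.99 (SE 0.28, limma adjusted p 0.000591). Fzd10, another receptor of the family, showed the reverse, at 8.23, 6.73, 11.56 and 11.70, and rose by 4.15 (SE 0.49, limma adjusted p 0.00142). Lgr6, an R-spondin receptor of epithelial stem cells, was at 7.72, 9.38, 5.84 and 5.97, without signal in Wnt-deficient medium and at least 4.55-fold lower. Fzd6 and the Wnt5a receptor Ror2 had log2 fold changes of -1.65 and -1.52. Lgr5, the stem cell receptor that is itself a Wnt target, was at 7.70, 7.09, 5.93 and 5.98. It was lower on both Wnt-deficient arrays, where it had no signal, and with a log2 fold change of -1.44 and an adjusted p of 0.00281 by limma it just missed the fold threshold, which it passed under 6 other settings. The co-receptors Lrp5 and Lrp6 had log2 fold changes of 0.30 and -0.69, and Fzd1, Ryk and Fzd9 values between 0.74 and 0.94 that were not called. Fzd7, Fzd4 and Fzd10 kept their calls under every setting, whereas Lgr6 lost its call without either Wnt-deficient array or its mouse. Fzd6 lost its call under 8 settings, among them without the passage 1 array (log2 fold change -1.02) and the fit of the 4 arrays alone. Ror2 lost its call under 7, among them without Wnt-deficient replicate 1 (-1.25), the deposited table and scaling to the 75th percentile.

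**Figure D2:**
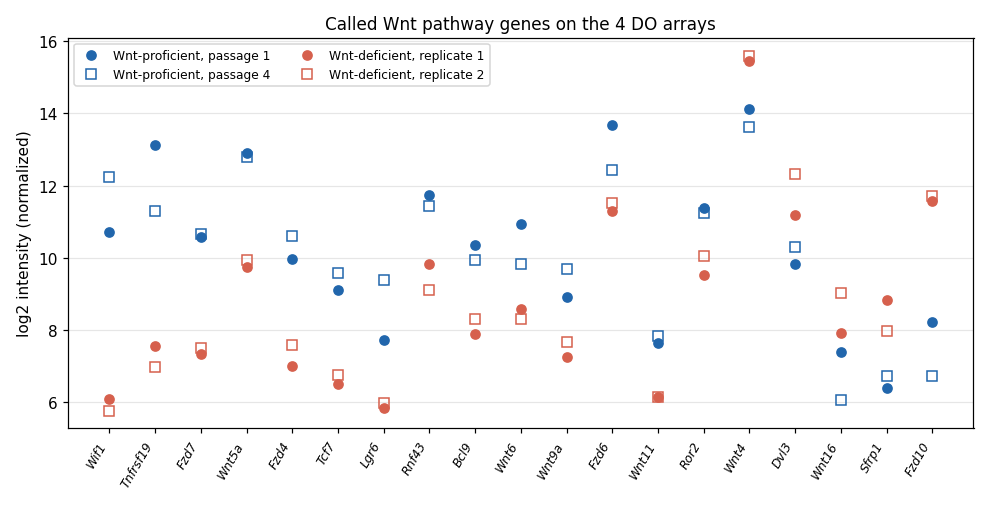
Normalized log2 intensity (y axis) of the called genes of the Wnt pathway (x axis, ordered by fold change) on each of the 4 arrays, blue for Wnt-proficient (filled circle passage 1, open square passage 4) and red for Wnt-deficient (filled circle replicate 1, open square replicate 2). Wif1 stands at 10.72 and 12.22 in the Wnt-proficient and at 6.08 and 5.76 in the Wnt-deficient organoids, and Fzd10 at 8.23 and 6.73 against 11.56 and 11.70.

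Among the inhibitors, Wif1 fell and Sfrp1 rose. Of 19 inhibitor genes 9 were tested, of which 1 was lower, 1 was higher and 7 were not called (median log2 fold change 0.71). Under 5 settings, offset 16 on either spot intensity, both other scalings and the deposited table, there were 3 higher. Wif1, a secreted protein that traps Wnt ligands, had log2 intensities of 10.72, 12.22, 6.08 and 5.76. It had no signal on the Wnt-deficient arrays and was at least 34.5-fold lower there (limma adjusted p 0.000299). Sfrp1, a soluble Frizzled-like decoy, was higher on both Wnt-deficient arrays, at 6.40, 6.72, 8.84 and 7.97 (log2 fold change 1.84), and fell short of the threshold without Wnt-deficient replicate 1 (1.40). Notum, which removes the lipid from Wnt proteins, stood at 13.46, 11.58, 11.52 and 11.65. Only the passage 1 array was high, the groups overlapped, and the log2 fold change of -0.94 had an adjusted p of 0.214 by limma. Without the passage 4 array or its mouse Notum was called, with a log2 fold change of -1.88. The BMP and Wnt antagonist Sostdc1 and the Wnt antagonist Apcdd1 both had a log2 fold change of 1.35, which was not called (Sostdc1 had no signal in Wnt-proficient medium) but was under 7 (Sostdc1) and 5 (Apcdd1) other settings. Not called either were Dkk3 (0.96), Dkkl1 (0.71), Kremen1 (0.11) and Tpbg (-0.34). Dkk1, Dkk2, Dkk4, Sfrp2, Frzb, Sfrp4, Sfrp5, Sost, Kremen2 and Draxin were not tested.

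A few targets of the pathway fell. Of 13 tested target genes 3 were lower and 10 were not called (median log2 fold change -0.94, or -0.57 over the 10 genes well above background on all 4 arrays), and limma called 0 higher, with 9 of the 13 at an unadjusted p under 0.05 in either direction. Tnfrsf19, a receptor of the TNF family (Troy), had log2 intensities of 13.12, 11.30, 7.55 and 6.96. The Wnt-deficient arrays were both far below the others, with a log2 fold change of -4.96 (SE 0.53, limma adjusted p 0.000957). Tcf7, a TCF/LEF factor, was at 9.11, 9.56, 6.51 and 6.74 and Rnf43, the ligase that removes Frizzled receptors, at 11.72, 11.43, 9.82 and 9.10. These genes separated the groups as well, with log2 fold changes of -2.71 and -2.12, and all 3 kept their calls under every setting. Axin2, a feedback inhibitor that is widely used as a readout of the pathway, was at 7.57, 7.41, 6.32 and 6.26. It had no signal in Wnt-deficient medium and was at least 2.17-fold lower, and with a log2 fold change of -1.20 and an adjusted p of 0.0019 by limma it was not called, though it was under 4 other settings. Other targets below 0 were Ccnd1 (-1.01), Lef1 (-0.34, without signal in Wnt-deficient medium) and Znrf3 (-0.19), and those above it were Ascl2 (0.04), Nkd2 (0.91), Myc (0.94) and Apcdd1 (1.35), none of them called, although Apcdd1 was called higher under 5 other settings. Lgr5 and Notum are given above, and Nkd1 and Sp5 were not tested. In the core of the pathway, 14 genes were tested, of which the co-activator gene Bcl9 was lower (log2 fold change -2.05), Dvl3, which relays the receptor signal, was higher (1.69) and 12 were not called (median -0.13, which turned to 0.01 with the processed signal of Feature Extraction). Ctnnb1, which encodes beta-catenin, had a log2 fold change of -0.08. Bcl9 lost its call without the mouse of the passage 1 array (adjusted p 0.0567) and Dvl3 without Wnt-deficient replicate 2 (log2 fold change 1.13).

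The promoters of the Wnt genes that fell were searched for TCF/LEF letters on both strands. These are CTTTGAA, the same with a T as its last letter, which is CTTTGAT, and the form that ends in a pair of T, which is CTTTGTT. RefSeq promoters (GRCm38.p6, from 250 bases before to 50 bases after the start of the transcript) were found for 12 of the 14 Wnt genes called lower, in 16 windows. Of these windows 3 held a match, those of Tnfrsf19, Fzd7 and Wnt11, and of all 32851 windows 13.9% did. The windows of Tnfrsf19 (chr14:61037938-61038237, minus strand) and Fzd7 (chr1:59481897-59482196, plus strand) are printed because these genes had large falls that kept their call under every setting. Capitals mark the matched letters, which are a description of the sequence and not a site.
Tnfrsf19: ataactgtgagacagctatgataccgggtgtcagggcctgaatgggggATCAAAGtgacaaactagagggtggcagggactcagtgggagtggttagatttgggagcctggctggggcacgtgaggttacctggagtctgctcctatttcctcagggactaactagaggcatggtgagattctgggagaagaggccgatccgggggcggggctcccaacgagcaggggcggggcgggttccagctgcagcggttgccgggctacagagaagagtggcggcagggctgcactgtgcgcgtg
Fzd7: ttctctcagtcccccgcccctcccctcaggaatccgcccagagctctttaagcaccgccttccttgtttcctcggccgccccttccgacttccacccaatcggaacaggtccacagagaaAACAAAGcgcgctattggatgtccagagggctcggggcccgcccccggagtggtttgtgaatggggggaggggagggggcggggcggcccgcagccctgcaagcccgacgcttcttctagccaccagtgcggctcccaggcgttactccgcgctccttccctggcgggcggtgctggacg

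Late cornified envelope (Lce) and Sprr genes, which encode small proteins cross-linked under the membrane of dying keratinocytes, were for the most part higher. Of 33 tested genes 25 were higher, 0 were lower and 8 were not called by limma (26 at an unadjusted p under 0.05), with a median log2 fold change of 6.66. A signal in only 1 medium let 11 of the 33 be tested, so that these had to differ, and of the 15 genes well above background on all 4 arrays 9 were higher, with a median of 2.66. All 13 tested genes named Lce1 and all 6 named Lce3 were higher. Lce3a stood at log2 intensities of 6.78, 6.13, 16.14 and 16.25 and Lce1k at 6.27, 6.20, 13.05 and 12.74. Both genes were near background on both Wnt-proficient arrays and high on both Wnt-deficient ones, with a log2 fold change of 9.74 (SE 1.37, limma adjusted p 0.00268) for Lce3a and a rise of at least 101-fold for Lce1k. As Lce3a was not well above background on both Wnt-proficient arrays, its value is no exact fold. Lce3b, at 7.18, 6.49, 16.60 and 16.28, had a log2 fold change of 9.60 with a standard error of 1.79. The standard error comes from the fit to all 8 arrays, and in early Wnt-deficient organoids Lce3b differed between the mice, with 9.71 and 16.19. The Sprr genes were split. Sprr3 stood at 6.96, 6.45, 14.48 and 14.30 and Sprr2k at 6.67, 6.08, 9.47 and 9.97, and both were called, with log2 fold changes of 7.68 and 3.34. The other rises among them were those of Sprr1b (6.07), Sprr2f (5.0), Sprr2g (2.39) and Sprr2j-ps (1.68). Sprr2a2, Sprr2b, Sprr2d, Sprr2e, Sprr2h, Sprr2i, Sprr1a and Sprr4 were not called. Sprr2a2 had a log2 fold change of -0.01 by this probe. Of the 25 calls, 13 held under every setting and 12 did not, those of Lce1a1, Lce1d, Lce1g, Lce3b, Lce3c, Lce3d, Lce3e, Lce3f, Sprr1b, Sprr2f, Sprr2g and Sprr2j-ps. The 8 Lce genes among them were lost without a Wnt-proficient mouse, that of Lce3b with an adjusted p of up to 0.067, while its log2 fold change stayed between 9.26 and 11.41 under all settings. For Sprr1b, at 10.75 and 6.36 in Wnt-proficient medium and higher on both Wnt-deficient arrays, the adjusted p went up to 0.123.

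Some Lce probes are alike in sequence, so that their values are not independent. The probes of Lce3b (chr3:92737872-92737931, mm9) and Lce3c (chr3:92749506-92749565, mm9), which head the list of rises, have 54 of 60 bases in common, and the 6 that differ are in capitals. Those of Lce1d and Lce1i have 46 bases in common. Lce3c had log2 intensities of 7.85, 6.69, 16.31 and 16.03, the same order of groups as Lce3b. The Lce1c probe is listed for Lce1c, Lce1e and Lce1f, and that of Lce1a2 for Lce1a1 and Lce1a2.
Lce3b: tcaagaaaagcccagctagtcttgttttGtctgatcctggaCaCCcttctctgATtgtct
Lce3c: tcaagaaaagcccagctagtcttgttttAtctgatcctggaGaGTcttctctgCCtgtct

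Several other cornified envelope genes rose as well, and involucrin fell. Of 22 tested genes 12 were higher, 1 was lower and 9 were not called (median log2 fold change 2.54). Lor, which encodes loricrin, the main protein of the cornified envelope, had log2 intensities of 10.33, 9.58, 16.16 and 16.55. The Wnt-deficient arrays were both higher, with a log2 fold change of 6.40 (SE 0.32, limma adjusted p 6.05e-05). Ivl, which encodes involucrin, an early scaffold of the envelope, went from 12.93 and 12.14 to 8.57 and 8.20. It was low on both Wnt-deficient arrays, and its log2 fold change was -4.15 (SE 0.30, limma adjusted p 0.000231). Asprv1, a protease that processes filaggrin, stood at 7.67, 6.39, 14.76 and 14.78, and the S100-fused protein gene Rptn at 6.84, 6.32, 12.28 and 11.95. Both were higher on the Wnt-deficient arrays, with log2 fold changes of 7.74 and 5.54. Further rises were those of Gm94 (8.40), Krtdap (8.42), Crct1 (7.70), Cnfn (7.64), Cdsn (6.35), Cst6 (4.72), Scel (2.70), Ppl (2.38) and Hrnr (at least 2.90-fold). The passage 1 array was higher than the passage 4 array by more than 1 for 12 of the 22 genes, against 2.39% of all named probes, and for Cnfn the values were 10.40, 6.97, 16.53 and 16.11. Flg and Flg2, which encode filaggrins, were not tested, and neither was Tchhl1. Calls of Cdsn, Krtdap and Ppl were lost when an array or mouse was left out, with lowest log2 fold changes of 5.89, 6.75 and 1.76. Hrnr lost its call under 11 settings, among them the fits of the 4 arrays alone and the one without a filter on dim probes.

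The promoters of the cornified genes that rose were searched on both strands for the AP-1 letters TGAGTCA and the TATA letters TATAAA. Windows were found for 30 of the 37 Lce, Sprr and other cornified genes called higher, 31 windows in all. Of these, 5 held the AP-1 and 11 the TATA letters, and 4 the TCF/LEF letters given above. Over all 32851 windows the shares were 5.20%, 13.6% and 13.9%. The window of Ivl, the cornified gene called lower, also held both the AP-1 and the TATA letters. The Lor window (chr3:92083093-92083392, minus strand, GRCm38.p6, from RefSeq) is shown because Lor had the smallest adjusted p of the cornified genes, and its AP-1 and TATA letters are in capitals.
Lor: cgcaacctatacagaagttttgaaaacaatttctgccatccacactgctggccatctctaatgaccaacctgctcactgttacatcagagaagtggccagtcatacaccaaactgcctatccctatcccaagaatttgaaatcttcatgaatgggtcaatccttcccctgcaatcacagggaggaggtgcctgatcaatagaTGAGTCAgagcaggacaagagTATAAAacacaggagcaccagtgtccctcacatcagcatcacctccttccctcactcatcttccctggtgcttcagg

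Many enzymes that build the lipid barrier between cornified cells were higher as well. Of 18 tested genes 11 were higher, 0 were lower and 7 were not called by limma (13 at an unadjusted p under 0.05), with a median log2 fold change of 1.87. The passage 1 array was higher than the passage 4 array by more than 1 for 7 of the 18, against 2.39% of all named probes. Alox12b, a lipoxygenase needed for the lipid envelope, had log2 intensities of 6.40, 6.34, 11.05 and 11.92 and rose by 5.11 (SE 0.51, limma adjusted p 0.00074). Lipk, a lipase, stood at 6.46, 5.99, 10.06 and 8.85, and Dgat2, which makes triglycerides, at 11.56, 10.67, 13.46 and 13.86. In all 3 genes the Wnt-deficient arrays were both higher, and these 3 calls held under every setting. Elovl4 (4.02), Aloxe3 (3.85), Lipm (3.01), Sult2b1 (2.52), Abca12 (at least 4.10-fold), Cers3 (2.01), Pnpla1 (1.72) and Sdr9c7 (1.59) were called but lost the call under at least 1 setting, with adjusted p up to 0.143 for Elovl4 without the mouse of the passage 4 array.

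Most of the tested kallikreins, the proteases that shed the outermost cells, and of their inhibitors rose. Of 18 tested genes 14 were higher, 0 were lower and 4 were not called by limma (15 at an unadjusted p under 0.05), with a median log2 fold change of 4.54, and 7 of the 18 had a signal in 1 medium only. Over the 10 genes well above background on all 4 arrays, of which 6 were higher, the median was 3.66. Klk13 had log2 intensities of 6.0, 6.13, 12.31 and 12.37 and was at least 74.0-fold higher (adjusted p = 9.24e-06 by limma). Klk8 was at 6.61, 7.04, 15.61 and 15.52, with a log2 fold change of 8.74, and Klk10 at 6.50, 6.33, 10.91 and 11.52. For all 3 proteases the Wnt-proficient arrays were near background and the Wnt-deficient arrays were high. Klk6, Klk7, Klk11 and Klk12 were at least 12.3, 9.34, 56.3 and 75.6-fold higher, and Klk9 and Klk14 had log2 fold changes of 5.31 and 4.28. Among the inhibitors and other proteases, Wfdc12 (8.83), Serpinb3a (at least 207-fold), Spink5 (5.74), Tmprss4 (3.04) and Wfdc5 (at least 7.42-fold) were called, and Prss8, Serpinb2, Serpinb5 and St14 were not. Calls of Klk14, Spink5 and Wfdc5 were lost without a mouse (adjusted p up to 0.0574, 0.0507 and 0.0695).

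Several keratins of the suprabasal layers rose, while the basal keratins Krt5 and Krt14 were not called. Of 14 tested suprabasal keratins 7 were higher, 0 were lower and 7 were not called by limma (12 at an unadjusted p under 0.05), with a median log2 fold change of 2.38. Krt10, the keratin of cornifying skin, had log2 intensities of 10.95, 9.46, 15.55 and 15.81, and Krt76, a keratin of oral and other stratified epithelia, of 8.77, 7.23, 13.92 and 14.51. Both keratins were higher on both Wnt-deficient arrays, with log2 fold changes of 5.48 (SE 0.47, limma adjusted p 0.000425) and 6.22 (SE 0.51, limma adjusted p 0.000386). Krt23 (2.84) and Krt79 (1.85) were higher too, and Krt4 (3.27), Krt78 (2.87) and Krt13 (1.92) were called but not under every setting, with adjusted p up to 0.0506 for Krt4 and 0.21 for Krt78, and a log2 fold change of 1.41 for Krt13 without the passage 4 array. Krt1, the partner of Krt10, stood at 14.42, 6.92, 13.99 and 14.36. The passage 4 array alone was low, the groups overlapped, and the log2 fold change of 3.51 was not called (adjusted p = 0.275 by limma). Of 14 suprabasal keratins, 9 were higher by more than 1 at passage 1 than at passage 4, against 2.39% of all named probes.

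Of 20 tested basal layer genes 5 were lower, 0 were higher and 15 were not called by limma (12 at an unadjusted p under 0.05), with a median log2 fold change of -0.34. With the processed signal 2 were higher, and 1 was with scaling to the 75th percentile and in either fit of the 4 arrays alone. Krt5 was at 17.96, 17.77, 17.90 and 17.92, with a log2 fold change of 0.05, and Krt14 at 17.06, 16.48, 17.97 and 17.99 (1.21, not called). Trp63, the master factor of the squamous lineage, stood at 14.51, 13.76, 13.84 and 13.73 (-0.35). Genes that fell encode anchors to the basement membrane. Lamb3, which encodes part of a laminin, went from 14.70 and 14.49 to 12.18 and 12.35, and was lower on both Wnt-deficient arrays (log2 fold change -2.33). The integrins Itga3 (-2.40) and Itgb1 (-1.83) were lower too. Lama3 (-1.89), another laminin gene, was called with an adjusted p of 0.0329 by limma, which went up to 0.171 when the mouse of the passage 4 array was left out. Of 20 genes of desmosomes and junctions 6 were higher, 0 were lower and 14 were not called by limma (14 at an unadjusted p under 0.05), with a median log2 fold change of 0.73. Dsc3 (log2 fold change 2.92) and Dsg1a (at least 16-fold higher), desmosomal cadherins, kept their calls under every setting, and Dsg1b (3.23), Dsg1c (1.60, a probe also listed for Dsg1b), Gjb2 (2.22) and Dsc2 (1.78) lost theirs under at least 1, with adjusted p up to 0.0572, 0.0769, 0.123 and 0.0842.

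Genes of columnar epithelium went both ways, more of them down than up. Of 26 tested genes 11 were lower, 4 were higher and 11 were not called (median log2 fold change -0.94). Msln, which encodes the surface protein mesothelin, had log2 intensities of 14.73, 16.28, 6.93 and 6.78, the largest fall of the list. Both Wnt-deficient arrays were low, and the log2 fold change was -8.65 (SE 0.52, limma adjusted p 0.000107). Krt19 and Krt18, keratins of simple epithelia, stood at 16.10, 16.68, 10.42 and 9.40 and at 15.02, 15.13, 10.52 and 9.55. Cldn4, a tight junction protein, was at 12.50, 12.25, 7.61 and 7.48. These genes kept the groups apart, with log2 fold changes of -6.48, -5.04 and -4.83, and kept their calls under every setting, as did Agr2 (-2.78) and Krt20 (at least 5.53-fold lower). Krt7, which marks columnar and transitional epithelium, went from 15.16 and 15.71 to 12.44 and 9.52, and its call (log2 fold change -4.46) was lost when any of 5 of the 8 arrays or either Wnt-proficient mouse was left out or under other processing (adjusted p up to 0.174). Cldn7 (-5.29), Krt8 (-3.75), Wfdc2 (-2.31) and Cd63 (-2.06) were lower but not under every setting, with adjusted p up to 0.0536, 0.0967, 0.107 and 0.0549. The genes called higher were Ltf (6.63), which encodes lactoferrin, the protease inhibitor Slpi (6.16), Pax8 (at least 6.93-fold) and Psca (2.33), all of which lost the call without 1 of the mice (adjusted p up to 0.0905, 0.0587, 0.0529 and 0.0733). The Wnt-deficient organoids differed from each other here, as 9 of the 26 genes were higher by more than 1 on replicate 1 than on replicate 2, against 1.82% of all named probes. So did the Wnt-proficient ones, with 8 of the 26 higher by more than 1 at passage 4 than at passage 1, against 3.48%. Muc1, Muc4, Muc5b, Foxa2, Sox17, Cldn10, Cxcl17, Mmp7 and Tff3 were not tested.

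Some genes of EGF receptor signalling fell, and so did some of BMP signalling. Of 18 tested genes of the EGFR pathway 5 were lower, 0 were higher and 13 were not called by limma (10 at an unadjusted p under 0.05), with a median log2 fold change of -0.54. The ligand genes Ereg and Areg had log2 intensities of 11.39, 12.07, 6.53 and 6.37 and of 10.79, 12.41, 7.30 and 6.96. Both ligands were low on both Wnt-deficient arrays, with log2 fold changes of -5.28 (SE 0.26, limma adjusted p 6.05e-05) and -4.46 (SE 0.47, limma adjusted p 0.000908). The ERK-responsive genes Etv4 (13.10, 13.32, 8.88 and 9.41), Etv5 (13.19, 12.99, 9.16 and 9.47) and Dusp6 (15.28, 14.94, 11.55 and 11.41) shared this pattern, with log2 fold changes of -4.07, -3.77 and -3.63. All 5 kept their calls under every setting. Egfr itself was at 12.23, 11.94, 12.88 and 12.10 (0.41, not called).

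Of 24 tested genes of the TGF-beta and BMP pathways 10 were lower, 0 were higher and 14 were not called by limma (15 at an unadjusted p under 0.05), with a median log2 fold change of -0.87. Id1 and Id3, targets of BMP signalling, stood at 15.55, 15.07, 12.21 and 12.48 and at 13.65, 13.60, 6.32 and 8.64. Both were low on the Wnt-deficient arrays, with log2 fold changes of -2.96 and -6.15. Bmp4, a ligand, was at 12.29, 11.09, 8.85 and 7.57 and Fstl1, an antagonist, at 9.36, 10.06, 6.34 and 6.17. Their log2 fold changes were -3.48 and -3.45, and those of Bmp2 and Tgfb1 were -2.75 and -1.87. Id2 (-2.23), Smad6 (-2.12), Inhbb (-1.60) and Smad7 (-1.55) were called but not under every setting, with adjusted p up to 0.0947 for Id2, 0.06 for Smad6 and 0.119 for Inhbb, and a log2 fold change of -1.38 for Smad7 without Wnt-deficient replicate 2. In the Notch pathway 22 genes were tested, with 1 higher, 0 lower and 21 not called by limma (7 at an unadjusted p under 0.05), and the median of -0.04 was above 0 under both other scalings (0.05 and 0.20). The called gene, the ligand Dll1, rose from 8.02 and 8.15 to 10.95 and 10.55 (log2 fold change 2.67) and kept its call under every setting.

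Hox genes, which set position along the body axis, went both ways. Of 29 tested genes 14 were lower, 7 were higher and 8 were not called (median log2 fold change -1.50, or -1.37 with genes lacking a signal in 1 medium at their bound). A signal in only 1 medium let 20 of the 29 be tested, so that these had to differ, and of the 8 genes well above background on all 4 arrays 5 were higher and 0 lower, with a median of 2.09. In the Hoxa cluster 8 of 12 genes were lower and 0 higher, and in the Hoxd cluster 5 of 6 were lower and 0 higher, and 12 of these 13 had no signal in Wnt-deficient medium. In the Hoxb cluster 5 of 9 were higher and 1 lower, and both tested Hoxc genes were higher. Hoxd13 had log2 intensities of 13.20, 12.74, 6.07 and 6.21, Hoxa11 of 12.19, 12.02, 6.0 and 6.06 and Hoxb13 of 11.80, 11.54, 5.95 and 5.87. In all 3 genes, which belong to the posterior part of their clusters, both Wnt-deficient arrays were at background. They were at least 97.4, 53.4 and 39.5-fold lower. The antisense transcript Hoxa11os, at 14.24, 14.17, 6.85 and 6.16, had a log2 fold change of -7.70. As Hoxa11os was not well above background on both Wnt-deficient arrays, this value is no exact fold. Hoxa7, Hoxa10, Hoxa3, Hoxa9 and Hoxa13 were at least 60.5, 16.3, 10.6, 9.05 and 4.56-fold lower. Hoxd8, Hoxd11, Hoxd10 and Hoxd4 were at least 14.5, 11.48, 9.28 and 4.45-fold lower. Hoxb8 rose from 7.40 and 7.43 to 11.85 and 12.12 (log2 fold change 4.58, SE 0.22, limma adjusted p 5.71e-05) and Hoxc4 from 6.03 and 6.02 to 9.96 and 10.50, at least 17.4-fold. Hoxb2 (2.67), Hoxb4 (2.60), Hoxb6 (2.10), Hoxb7 (2.08) and Hoxc5 (at least 2.81-fold) rose as well. Of these 21 calls 19 held under every setting, those of Hoxb7 (adjusted p 0.0558 without the mouse of Wnt-deficient replicate 2) and Hoxc5 (log2 fold change 1.20 without that replicate) being the others.

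**Figure D3:**
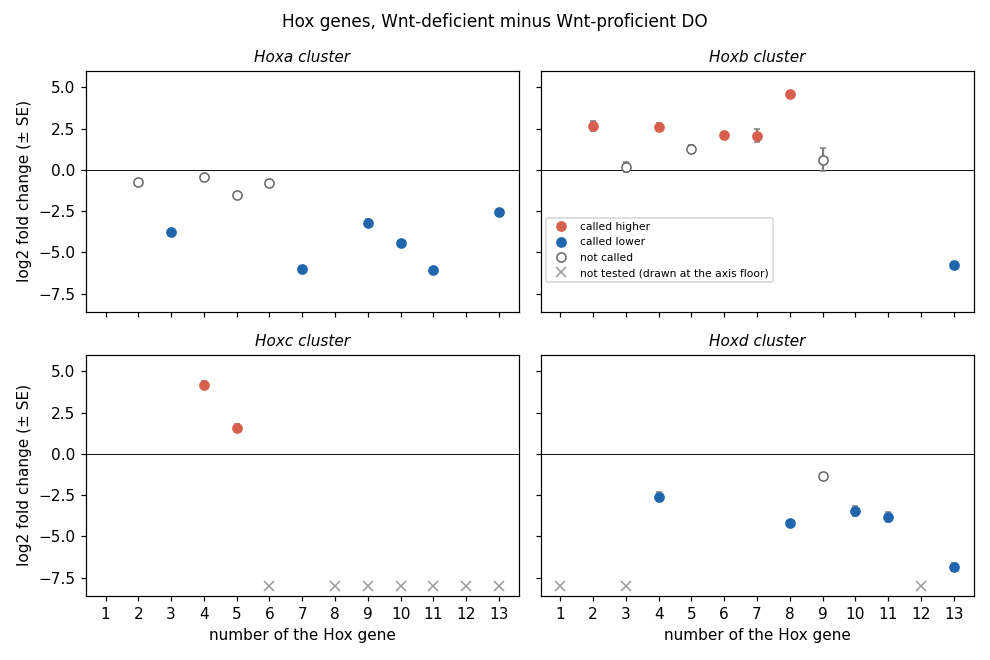
Log2 fold change with its standard error (y axis, Wnt-deficient minus Wnt-proficient differentiated organoids) of Hox genes by their number (x axis), with a panel for each cluster; red, called higher; blue, called lower; open, not called; crosses, not tested. Where a gene had no signal in 1 medium the value is set against background. Hoxa and Hoxd genes lie below 0, with Hoxd13 at -6.83, and Hoxb genes other than Hoxb13 and both Hoxc genes lie above it, with Hoxb8 at 4.58.

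Other transcription factors with roles in the female genital tract and its epithelia went both ways. Of 35 tested genes 9 were higher, 9 were lower and 17 were not called (median log2 fold change 0.01). Irx1 had log2 intensities of 5.99, 5.86, 14.72 and 14.94, and Irx2, its neighbour in the genome, of 9.32, 8.27, 11.65 and 11.72. Both Iroquois genes were higher on both Wnt-deficient arrays, Irx2 with a log2 fold change of 2.89. Tbx3, a T-box factor, went from 14.25 and 13.72 to 6.65 and 6.55 (log2 fold change -7.38, SE 0.34, limma adjusted p 5.21e-05), and Gata3 from 14.32 and 13.60 to 10.25 and 10.13 (-3.76). Gata6 and Isl1 were at least 11.4 and 13.2-fold lower, and Nr2f1 (-4.93) and Sox9 (-2.77) were lower too. Esr1, the estrogen receptor gene, stood at 8.27, 7.30, 10.62 and 10.63 and was higher on both Wnt-deficient arrays (log2 fold change 2.84), as were Barx2 (2.09) and Emx2 (at least 4.46-fold). Foxa1, which opens chromatin in glandular cells, was at 14.39, 14.75, 9.76 and 6.81, lower on both Wnt-deficient arrays but far apart between them. Its call (log2 fold change -6.28) was lost without either Wnt-proficient mouse (adjusted p up to 0.0652). Nr2f2 (-1.74), Runx1 (-1.50), Pitx1 (1.90) and Foxn1 (1.57) were called but not under every setting, and without 1 array their log2 fold changes were -1.46 (Nr2f2), -0.90 (Runx1), 1.49 (Pitx1) and 1.28 (Foxn1). Pax8 is given above.

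Several antimicrobial genes rose, and a few inflammatory genes fell. Of 26 tested genes 12 were higher, 4 were lower and 10 were not called (median log2 fold change 1.75, or 1.70 with bounds). A signal in only 1 medium let 7 of the 26 be tested, and over the 17 genes well above background on all 4 arrays, of which 5 were higher and 2 lower, the median was 0.42. At passage 4, 7 of the 26 were higher by more than 1 than at passage 1, against 3.48% of all named probes. Defb4 had log2 intensities of 5.80, 5.86, 14.22 and 14.06 and Defb14 of 6.98, 7.49, 15.74 and 14.80. These beta-defensins were high on both Wnt-deficient arrays, as were Defb6 (at least 94.9-fold higher), Defb3 (5.68-fold) and Defb1 (log2 fold change 3.42). S100a8, which forms calprotectin with S100a9, rose from 6.42 and 6.81 to 12.87 and 13.74 (log2 fold change 6.69), and S100a9 by 5.37. The interleukin 36 genes Il36a (at least 171-fold), Il36b (at least 53.75-fold) and Il36g (log2 fold change 3.26), S100a7a (at least 9.59-fold) and Il18 (4.31) were higher too. Tslp, a cytokine that epithelia release, went from 14.42 and 16.01 to 5.91 and 5.85, and Ptgs2, which makes prostaglandins, from 11.43 and 12.30 to 7.79 and 8.65. Both were lower on both Wnt-deficient arrays. Tslp had no signal there and was at least 462-fold lower (limma adjusted p 9.25e-05), the log2 fold change of Ptgs2 was -3.65, and Cxcl16 (-2.81) was lower as well. All of these 15 kept their calls under every setting, and Il1a (-1.63) did not (-0.998 without the passage 4 array).

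The retinoid pathway opposes squamous differentiation in many epithelia. Of its 17 tested genes 4 were lower, 3 were higher and 10 were not called (median log2 fold change -0.34). At passage 4, 6 of the 17 were higher by more than 1 than at passage 1, against 3.48% of all named probes. Stra6, the membrane receptor for the retinol carrier, had log2 intensities of 12.76, 15.01, 7.23 and 7.27 and Aldh1a1, which makes retinoic acid, of 11.68, 11.35, 7.09 and 7.54. Both were lower on both Wnt-deficient arrays, with log2 fold changes of -6.63 and -4.21, beside Dhrs3 (-2.59). Crabp2, which carries retinoic acid in the cell, rose from 12.98 and 12.27 to 15.23 and 15.56 (2.77). The calls of Rarb (at least 8.62-fold lower), Lrat (log2 fold change 3.73) and Dhrs9 (at least 2.89-fold higher) were lost under some settings, with adjusted p up to 0.0982, 0.0686 and 0.0515.

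Many genes of glycolysis and of the response to low oxygen were lower. Of 16 tested genes 9 were lower, 0 were higher and 7 were not called by limma (14 at an unadjusted p under 0.05), with a median log2 fold change of -1.71. Egln3, a prolyl hydroxylase that hypoxia induces, had log2 intensities of 13.46, 14.50, 7.28 and 7.55, and Bnip3, a mitophagy receptor, of 14.38, 14.99, 8.22 and 9.11. Vegfa, the angiogenic growth factor, was at 13.73, 13.22, 9.87 and 9.47. All 3 were low on both Wnt-deficient arrays, with log2 fold changes of -6.57, -6.02 and -3.81, and Ndrg1 (-3.76), Ankrd37 (-3.66) and Adm (-2.38) were lower too. Car9 (-3.49), Pgk1 (-1.87) and Aldoa (-1.55) were called but not under every setting, with an adjusted p of up to 0.227 for Car9 and, with the processed signal, log2 fold changes of -1.28 for Pgk1 and -1.16 for Aldoa. Aldoa also fell short without the passage 4 array (-1.37). Ldha, which makes lactate, stood at 17.30, 17.30, 16.34 and 16.63 (-0.82, not called). Of 17 genes of the amino acid stress response 2 were lower, 2 were higher and 13 were not called (median 0.07). Slc7a11, the cystine transporter, went from 11.74 and 11.06 to 6.79 and 7.65 (log2 fold change -4.18), and Psat1, a serine synthesis enzyme, from 12.86 and 13.06 to 14.71 and 14.87 (1.83). Slc7a5 (1.93) and Trib3 (-1.58) lost their calls under some settings (adjusted p up to 0.0699 and 0.231).

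Some genes linked to mesenchymal cells and matrix were lower in Wnt-deficient medium. Of 6 tested genes 4 were lower, 0 were higher and 2 were not called by limma (6 at an unadjusted p under 0.05), with a median log2 fold change of -2.12, and 3 of the 6 had a signal in 1 medium only, so that these had to differ. Of the 3 well above background on all 4 arrays 1 was lower. Cd34 stood at 12.70, 14.12, 6.07 and 6.04 and Fn1, which encodes fibronectin, at 11.55, 11.74, 6.10 and 6.12. Both had a signal on both Wnt-proficient arrays and none on the Wnt-deficient ones, at least 132 and 38.8-fold lower. Cd34 is given by 1 of its 2 tested probes, and the other was not called. Sparc (-1.94) and Tnc (at least 2.58-fold lower) lost their calls under some settings, with a log2 fold change of -1.30 for Sparc without the passage 1 array and of -1.20 for Tnc without that of passage 4. Vim, Snai1, Twist1, Zeb1 and Zeb2 were not tested. Of 9 stromal markers 1 was well above background on all 4 arrays and 7 on none, among them Col1a2, Dcn, Lum, Pdgfra and Pdgfrb, and their summed intensity was 687, 651, 646 and 656, with the highest mean log2 intensity for the Col3a1 probe.

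Cell cycle genes were not called in either direction. Of 28 tested genes 0 were called by limma, with 2 at an unadjusted p under 0.05, and the median log2 fold change was 0.18. The mean log2 intensity of the list was 11.28, 12.53, 12.15 and 12.16, and 21 of the 28 were higher by more than 1 at passage 4 than at passage 1, against 3.48% of all named probes. Mki67, the proliferation marker, stood at 12.55, 13.90, 13.30 and 13.17. The Wnt-deficient arrays lay between the Wnt-proficient ones. Cholesterol synthesis genes had a median log2 fold change of 0.46, and limma called 0 of 18, with 9 at an unadjusted p under 0.05. Of 10 housekeeping genes limma called 0, with 1 at an unadjusted p under 0.05, and their median of -0.12 became 0.22 with scaling to the 75th percentile and 0.41 with the processed signal.

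Interferon response genes differed within the Wnt-deficient group far more than between the media. The mean log2 intensity of the 25 tested genes was 9.85, 9.16, 11.73 and 7.42, and 23 of the 25 were higher by more than 1 on Wnt-deficient replicate 1 than on replicate 2, against 1.82% of all named probes. Oas2, an antiviral enzyme, stood at 7.59, 7.71, 12.38 and 5.85, and Isg15, a ubiquitin-like modifier, at 11.47, 10.84, 15.21 and 10.26. In both genes Wnt-deficient replicate 1 was the highest and replicate 2 the lowest, so that the groups overlapped. Limma called 0 of the 25 genes, with 0 at an unadjusted p under 0.05, and the median log2 fold change of 0.09 became -0.21 with the processed signal.

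**Figure D4:**
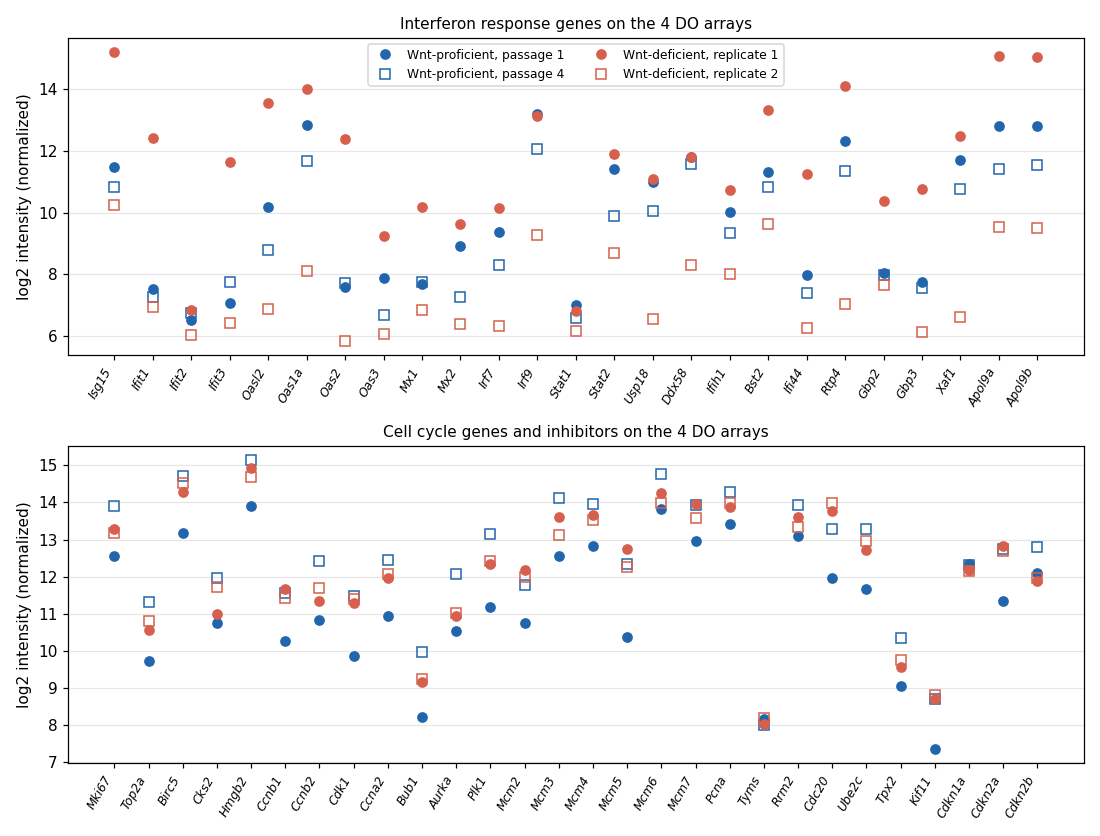
Normalized log2 intensity (y axis) of each tested interferon response gene (top) and cell cycle gene (bottom) on each of the 4 arrays, blue for Wnt-proficient (filled circle passage 1, open square passage 4) and red for Wnt-deficient (filled circle replicate 1, open square replicate 2). Oas2 stands at 12.38 on Wnt-deficient replicate 1 and at 5.85 on replicate 2, and Mki67 at 12.55 at passage 1 and 13.90 at passage 4.

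Markers of other cell types were measured as well. Of 8 immune markers 4 were well above background on all 4 arrays, with the highest mean for the Itgam probe and Ptprc, Adgre1 and Lyz2 among those on none, and they summed to 4708, 4820, 6315 and 7346. Of 5 smooth muscle and myoepithelial markers 1 was on all arrays and Cnn1, Des and Myh11 on none, with the highest mean for the Tagln probe (sums 1154, 1155, 4009 and 3732). Of 5 endothelial markers 1 was on all arrays, with the highest mean for the Kdr probe and Cdh5, Emcn and Tek on none (sums 1310, 1314, 1718 and 2786). Of 3 adipocyte markers, the Fabp4 probe had the highest mean and Plin1 was on no array (13660, 598, 1902 and 8338), and the values varied within both groups. Of 4 markers of ciliated cells 2 were on all arrays, with the highest mean for the Rsph1 probe and Dnah5 on none (613, 792, 387 and 959). Of 4 mesothelial markers Wt1 and Lrrn4 were on no array, and the sums were 27400, 79690, 326 and 297, with the highest mean for the probe of Msln, which glandular epithelium also expresses. For these marker lists, their part in the result was not tested.

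Whether the medium acted alike in early organoids (3 days) was asked by the difference between the medium effects, that in differentiated organoids minus that in early ones. Each mouse gave 1 early and 1 differentiated array. The early Wnt-proficient organoids were of passages 15 and 10 and the early Wnt-deficient ones of passage 2, so that in this difference age and passage cannot be told apart. Limma called 428 of the 28454 probes (1.5%), 247 above 0 (0.868%) and 181 below it (0.636%). Klk1b5, a tissue kallikrein, had log2 intensities of 5.98, 5.95, 13.72 and 13.21 in differentiated organoids, without signal in Wnt-proficient medium (at least 164-fold higher), and no signal on any early array. The difference between the medium effects was 7.56 (adjusted p = 0.000236 by limma), and for Klk1 and Klk1b3 it was 6.99 and 6.71. Those 3 kept the call under every setting. The probes of Klk1b5 and Klk1b26 have 54 of 60 bases in common when shifted by 1 base, so that their values are not independent. Wfdc12 (7.51), Klk1b26 (6.19) and Defb4 (5.93) completed the 6 largest called differences of named genes above 0. As Klk1b5, Klk1, Klk1b26 and Defb4 had no signal on the differentiated and early Wnt-proficient arrays, and the 3 kallikreins none on the early Wnt-deficient ones, their differences are set against background and are no exact folds. The same holds for Wfdc12, which had no signal on the early Wnt-proficient arrays. Among those below 0 were the ribosomal RNA probes Rs5-8s1 (-5.00) and Rn18s (-4.77), Adam8 (-4.66), Aldh1a3 (-4.48) and Pdlim4 (-4.40). Rs5-8s1, Rn18s and Aldh1a3 were not called in differentiated organoids and had log2 fold changes of 4.47, 4.15 and 3.59 in early ones. Pdlim4, a cytoskeletal protein, stood at 12.51, 12.10, 6.52 and 6.38 in differentiated organoids, a log2 fold change of -5.86, against -1.46 in early ones. Its call was kept under every setting. Pdlim4 had no signal on the early Wnt-deficient arrays and a signal on only 1 differentiated Wnt-deficient array. Its values are therefore set against background and are no exact folds. The number of calls rested on single arrays: without early Wnt-proficient replicate 1 it was 28, without early Wnt-proficient replicate 2 it was 70, without early Wnt-deficient replicate 1 it was 249 and without differentiated Wnt-deficient replicate 1 it was 155.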

How the data were processed

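RNA of the 8 mouse arrays was labelled with Cy3 and hybridized to a single-colour Agilent mouse design, although the study's description names a human custom design. The authors deposited the spot intensity and local background as Feature Extraction read them, and a processed intensity corrected within each array. The authors also deposited a table of log2 values, background-corrected and quantile-normalized. Here normexp (offset 50) took the median local background off the mean intensity of each spot in the scanner files. Controls were dropped, as were the outlier spots (169 to 206 per differentiated organoid array). Quantile normalization between arrays and log2 followed, and then the mean over the spots of a probe. In R 4.3.3 with limma 3.58.1 (data.table version 1.17.8 read the files), the 8 arrays entered a linear model of 4 group means (4 residual and 3.17 prior degrees of freedom), followed by eBayes and p adjusted by Benjamini-Hochberg for 28454 tests. Probes were named by accession through a GRCm38.p6 gene table (27593) or as in the file (5670), and 22418 had no name. Probe positions are those of the files (mm9).

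A gene is given by its tested probe with the highest mean log2 intensity over the 4 differentiated organoid arrays, without provisional symbols. Named were the 12 largest rises and falls among called probes above background on all 4 arrays, the 8 largest bounds in each direction, the called members of each gene list and all Wnt ligand, inhibitor and target genes, and the 6 largest called differences between the medium effects in each direction. Gm94 was named as a list member. Results of some genes chosen by these rules are not reported. Members and lists were chosen with earlier results of these data known. Each of 4 mice gave 1 early and 1 differentiated array, a pairing taken from the mouse in the labels; replicate numbers of the Wnt-proficient arrays are crossed between the ages. The deviations of a mouse's arrays from their group means correlated, over probes, with 0.14 (Wnt-proficient) and 0.07 (Wnt-deficient). Alternatives were other background offsets, scaling to the 75th percentile, the processed signal, the deposited log2 table, other filters, fits of the 4 arrays alone, the mouse as a random block (consensus correlation -0.04), and leaving out each array or mouse. The procedure was tested on simulated data.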

Additional observations from a re-analysis of the deposited data

Results flagged for a closer look

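For the named genes below, the medium effect in differentiated organoids was called different by limma from that in early organoids. The value is the log2 fold change (Wnt-deficient minus Wnt-proficient) in differentiated organoids minus that in early ones. Above 0 were Defb3 2.13, Defb4 5.93, Defb6 4.55, Dll1 1.63, Foxf2 1.94, Il1f6 3.68, Il1f8 3.29, Klk1 6.99, Klk1b26 6.19, Klk1b3 6.71, Klk1b5 7.56, Krt13 2.42, Krt76 4.80, Lce1m 4.18, Lor 3.20, Rptn 3.81, Rxrg 1.69, S100a7a 2.12, S100g 5.91, Serpinb3a 5.87 and Wfdc12 7.51. Below 0 were Adam8 -4.66, Aldh1a1 -2.66, Aldh1a3 -4.48, Cldn4 -3.73, Dkk3 -4.10, Etv4 -2.86, Etv5 -2.17, Fstl1 -2.37, Ndufa4l2 -2.92, Pdlim4 -4.40, Pkp2 -2.48, Rgs3 -1.98, Rn18s -4.77, Rs5-8s1 -5.00 and Wnt9a -3.14. A value below 0 need not be a fall in differentiated organoids. There Aldh1a3, Dkk3, Pkp2, Rn18s and Rs5-8s1 were not called. The log2 fold change of Dkk3 was above 0 in differentiated organoids and larger in early ones. In early organoids those of Aldh1a3, Rn18s and Rs5-8s1 were 3.59, 4.15 and 4.47. Il1f6 and Il1f8 are the names of Il36a and Il36b in the gene table. Most of these calls depend on single arrays, and Klk1, Klk1b3, Klk1b5 and Pdlim4 kept theirs under every setting. Values of genes without signal in a group are set against background and are no exact folds. Among these were Defb4, Klk1, Klk1b26, Klk1b5, S100g, Serpinb3a and Wfdc12, without signal on the early Wnt-proficient arrays. Pdlim4, without signal on the early Wnt-deficient arrays, was another.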

How the results depend on the processing

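The 2165 probes called between the media stayed within 1.5 times that number under every alternative but 1, the processed signal, which gave 4361, and leaving out an array or a mouse gave between 1944 and 2405. With the mouse as a block 2159 were called. Where an arm is left with 1 array, that array is assumed to vary like the other groups. Scaling to the 75th percentile shifted the median log2 fold change of all probes to 0.31 and the processed signal to 0.12, and the former called 1237 higher and 930 lower (57.1% higher, against 46.7%). The 428 differences between the medium effects became 758 with the processed signal and 366 with the mouse as a block, which ended the call of 2 of the 37 named genes. Leaving out an array or mouse gave between 12 and 515. Leaving out single arrays or a mouse, which has 2 arrays, moved this number most. It was lowest without the mouse of differentiated Wnt-proficient replicate 2. Of all calls 57.7% were above 0, against 42.2% (320 of 758) with the processed signal and 46.2% (244 of 528) with scaling to the 75th percentile. For 252 named genes, 227 were called between the media, of which 149 kept the call under every alternative and 78 lost it under at least 1, and 7 gained it. Of 37 genes with a called difference between the medium effects, Klk1, Klk1b3, Klk1b5 and Pdlim4 kept it and 33 lost it. No named result had the opposite sign while called (0 of both kinds), though Ascl2, Lef1, Notum, Rn18s, Wnt5b, Wnt7b and Znrf3, which were not called between the media, changed sign. Dim probes limit the folds, since on the Wnt-deficient arrays 47.9% and 43.2% of probes were well above background. The cause was not tested.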

Other observations

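Windows of 1 Mb (mm9) with at least 5 called genes were listed, and those that hold the gene families below are given, with no test. The window chr3:92000001-93000000, which holds the Lce and Sprr genes, had 28 genes called higher and 1 lower (Ivl) of 42 tested. The window chr7:51000001-52000000 with the kallikreins had 17 higher and 1 lower of 32, among them 10 genes named Klk1 or Klk1b. The window chr6:52000001-53000000 with the Hoxa cluster had 10 lower and 0 higher of 17, and chr2:74000001-75000000 with the Hoxd cluster had 7 lower and 0 higher of 11, while chr11:96000001-97000000 with the Hoxb cluster had 6 higher and 2 lower of 25. The window chr15:63000001-64000000, where the gasdermin C genes lie, had 6 lower and 0 higher of 7, and chr8:19000001-20000000, with beta-defensins, had 5 higher and 0 lower of 9. Another window with beta-defensins, chr2:152000001-153000000, had 2 higher (Defb26 and Defb45) and 3 lower of 21. In the keratin window chr15:101000001-102000000, 7 of 34 were higher, among them Krt4, Krt76, Krt78 and Krt79, and 5 lower, among them Krt7, Krt8 and Krt18. In the other keratin window, chr11:99000001-100000000, 6 of 27 were higher, among them Krt10, Krt13 and Krt23, and 2 lower (Krt20 and Krtap1-5).

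The interferon response genes had mean log2 intensities of 7.95 and 7.35 in early Wnt-proficient and 7.50 and 7.21 in early Wnt-deficient organoids, below the 11.73 of differentiated Wnt-deficient replicate 1. The arrays of a mouse are early and differentiated cultures of the same animal, and no cause of the high values was tested.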
